A study of Nannochloropsis oceanica with 6 samples.

Results

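The photosystem, electron transport and antenna genes of Nannochloropsis oceanica strain IMET1 were taken as every gene whose description names a photosystem, the oxygen-evolving complex, cytochrome b6, plastocyanin, cytochrome c6, ferredoxin-NADP reductase, a chlorophyll-binding protein or a light-harvesting protein. Of 10633 genes, 35 carried such words. The 3 Rieske iron-sulfur copies NO05G02030, NO05G02050 and NO05G02070 were left out, so 32 genes remained. They were 23 antenna proteins, 2 subunits of photosystem II, 4 assembly or processing factors, 2 genes of electron transfer around photosystem I, and 1 gene model of the cytochrome b6-f complex.

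The alga is a small marine eustigmatophyte grown for its oil. The low CO2 cultures were aerated with 0.04% CO2 for 24 h after 1 h at 5% CO2. The high CO2 cultures, the control, stayed at 5% CO2 throughout and were sampled at the same 24 h. Each group had 3 column reactors of 800 ml seeded from the same cells, in modified f/2 seawater medium with 10 mM Tris at pH 8.2, at 25 °C under continuous light of 80 µmol m-2 s-1, and poly(A) RNA of each reactor was sequenced. RNA came from whole cultures, so fewer cells of one state and less RNA per cell cannot be told apart.

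Antenna proteins bind chlorophyll and carotenoids and pass absorbed light energy to the photosystems. Photosystem II uses it to oxidise water, and the electrons then run through the cytochrome b6-f complex and a soluble carrier to photosystem I, ferredoxin and NADPH, which the Calvin cycle spends on fixing CO2. Eustigmatophytes hold chlorophyll a and lack chlorophylls b and c, so names such as "chlorophyll a-b" or "fucoxanthin-chlorophyll a-c binding protein" are those of the nearest described relatives and not of the pigments bound here. In this alga the core of both photosystems is encoded in the plastid: the plastid genes in RefSeq for strain IMET1 include 9 psa, 18 psb and 7 pet symbols. None of the 160 organelle genes of that table matched a gene identifier of the deposited tables, so plastid-encoded subunits were not analysed here and the 32 genes stand for the nuclear part of the apparatus.

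The 6 libraries held 4620234 to 6112822 counts. In each group 1 library was unlike the others: replicate 1 of low CO2 and replicate 3 of high CO2. Across 9244 genes, Pearson's r on log2 CPM, which are counts divided by the TMM-scaled library size, was 0.92 and 0.93 between low CO2 replicate 1 and low CO2 replicates 2 and 3, against 0.99 between the last 2. It was 0.94 and 0.95 between high CO2 replicate 3 and high CO2 replicates 1 and 2, against 0.98 between those 2. Low CO2 replicate 1 was nearer to high CO2 replicates 1 and 2, at 0.94 and 0.95, than to its own group. Low CO2 replicates 2 and 3 were also nearer to high CO2 replicates 1 and 2, at 0.94 to 0.95, than to low CO2 replicate 1. Values without either library are given where leaving it out changed a call or moved a described change by more than 1.5 times. For some genes this is a range that holds the value. Levels are given as FPKM (fragments scaled to transcript length and library size), which allows genes of different length to be compared. Changes are log2 fold changes, low minus high CO2, from counts with TMM scaling, which corrects for differences in library composition, so a positive value means a higher level in low CO2.

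These transcripts were among the most abundant of the alga. Ranked by mean FPKM over the 6 libraries, 25 of the 32 were among the top 106 of 10633 genes (the top 1%), and 21 of the 23 antenna genes were. The antenna gene NO25G00860 ranked 1, and 19 antenna genes were above 1000 FPKM in every library. The lowest of the antenna genes, NO07G03080, was at a mean of 93.5 FPKM, 54.9-fold below NO25G00860, so members of the family differed among themselves far more than between the CO2 conditions. The order of the 23 levels was close to the same in the libraries that resembled each other. Spearman's correlation across the 23 genes was 0.98 between low CO2 replicates 2 and 3 and 0.99 between high CO2 replicates 1 and 2, and it was lowest, 0.67, between low CO2 replicate 3 and high CO2 replicate 3. Genes of one library share its depth and composition, so these values describe the libraries.

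**Figure D1:**
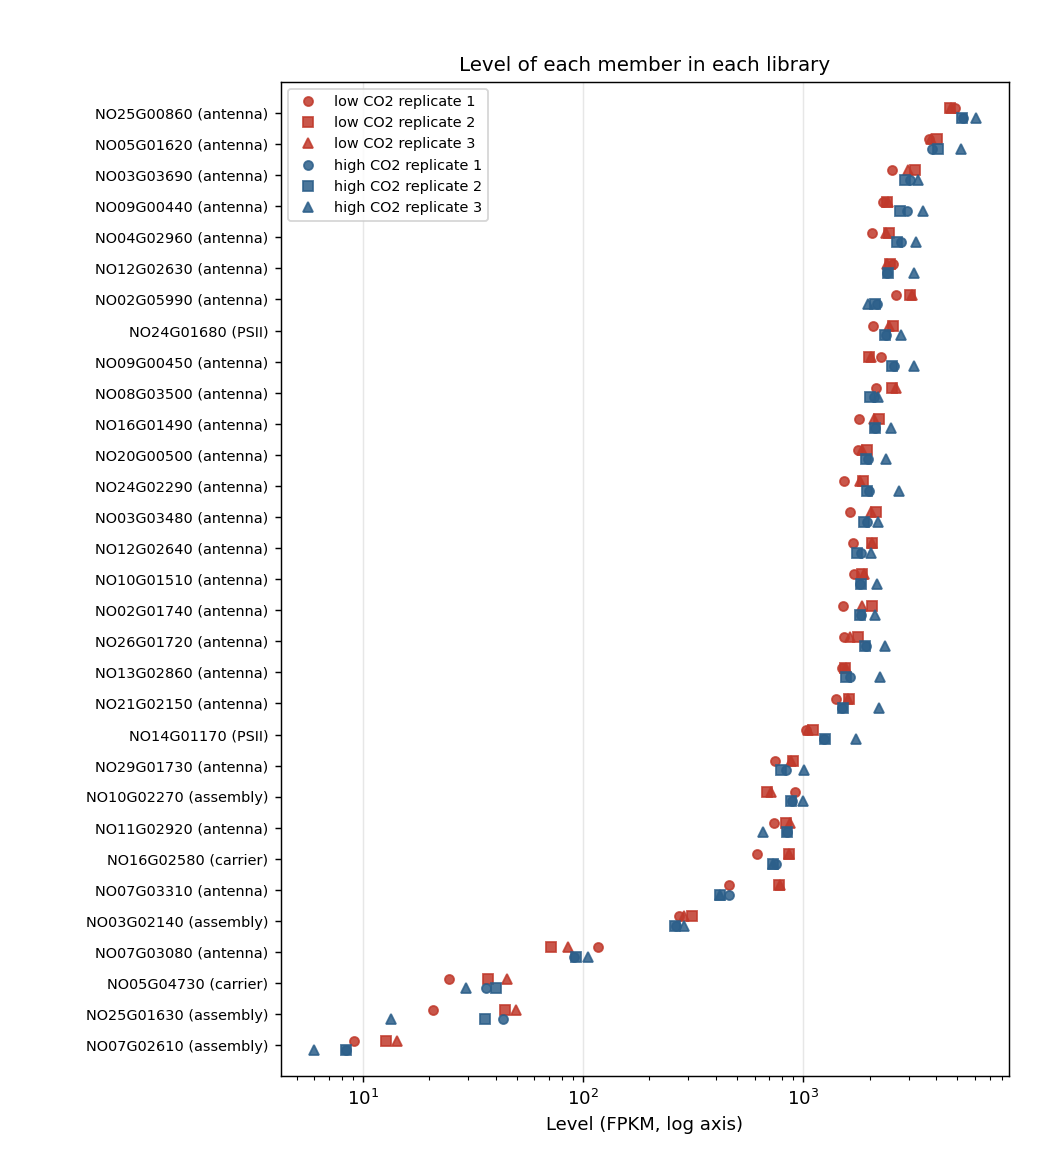
Level of each of the 31 members with counts in each library, in FPKM on a log axis, ordered by mean level; low CO2 in red above high CO2 in blue, with circles, squares and triangles for replicates 1, 2 and 3. Antenna genes fill the top of the plot, with NO25G00860 at 4736 ± 135 FPKM in low CO2 and 5529 ± 456 FPKM in high CO2 (SD, n = 3 each), and the lowest member with counts is the protease NO07G02610.

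The comparison of low with high CO2 asked whether these genes changed 24 h after the switch. None of the 31 members that could be tested passed in either direction (adjusted p below 0.05 by edgeR's quasi-likelihood test, with Benjamini-Hochberg adjustment over 9244 genes), where 2.12% of all genes did, 1.22% as higher and 0.898% as lower in low CO2. At an unadjusted p below 0.05, 2 members were higher and 6 lower in low CO2, where 18.6% of all genes had such a p, 9.42% as higher and 9.18% as lower. DESeq2's Wald test called 1 member, the antenna gene NO02G05990, as higher, and none as lower. It called 6.44% of all genes, 3.75% as higher and 2.69% as lower. In FPKM, all low CO2 libraries lay above all high CO2 libraries for 2 members and below them for 8, where 13.6% and 11.8% of all genes did. In CPM these counts were 3 and 9, where 13.2% and 13.5% of all genes did. The authors' deposited table of 217 changed genes held 0 of the 32. The smallest adjusted p among the members was 0.0663 and their standard errors ran from 0.09 to 0.43 log2 units. The 95% interval of the change lay within 2-fold in either direction for 29 of the 31, against 66.7% of all genes tested. The 2 exceptions were the proteases NO25G01630 and NO07G02610, with 43 to 201 and 48 to 141 counts per library. Cytochrome c6 (NO05G04730) had 36 to 88, and its interval lay within 2-fold. A p above the threshold does not show that a gene was unchanged, and p-values here measure the spread between reactors seeded from the same cells. For the 31 together the median log2 fold change was -0.16, beside 0.01 over all genes tested, and 23 of 31 values were negative, beside 48.6% of all genes. The median of the 31 was -0.07 without high CO2 replicate 3, and -0.06 without both libraries that stood apart, with 19 negative values.

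**Figure D2:**
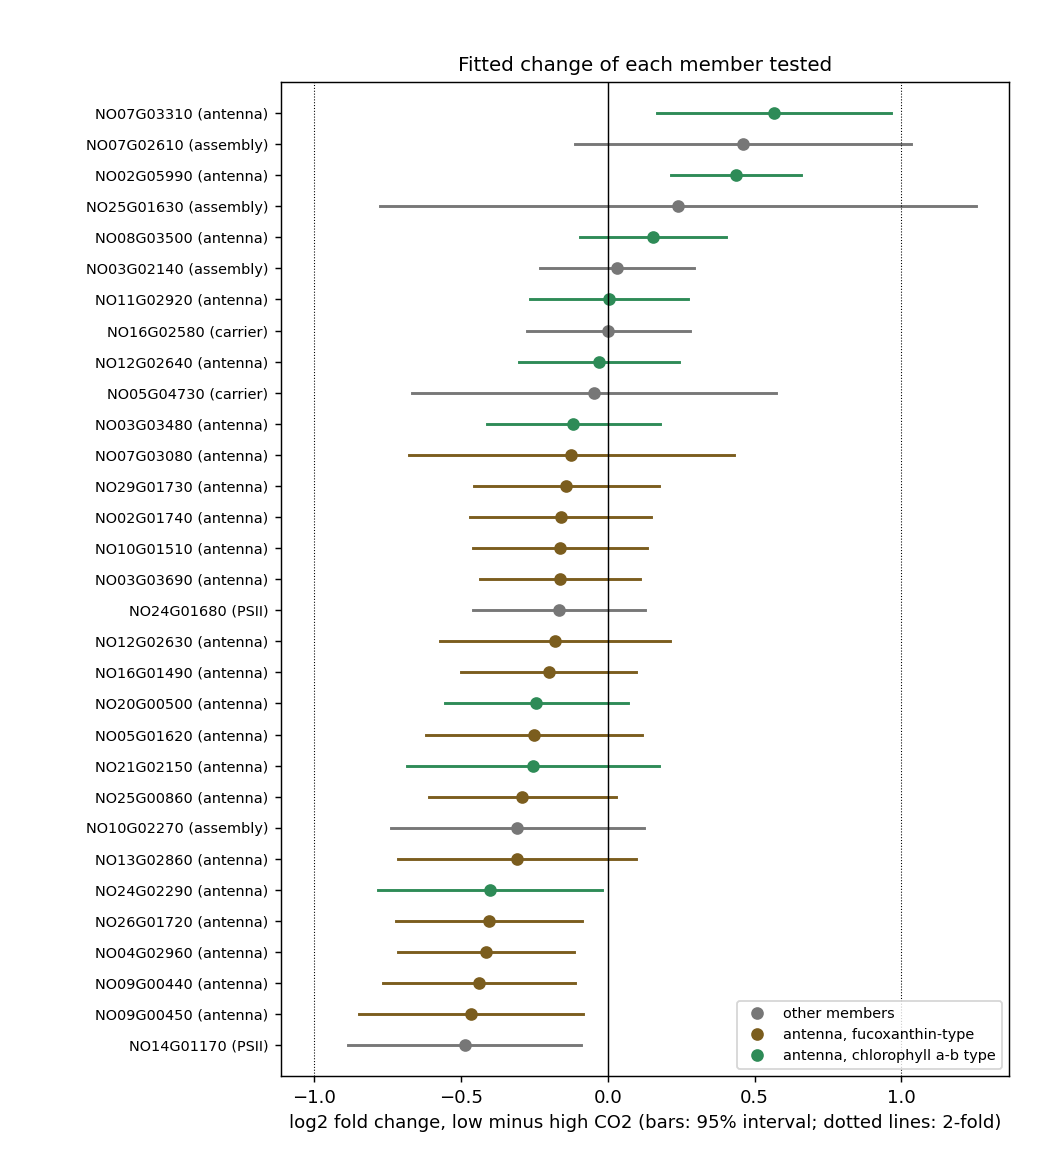
Log2 fold change (low minus high CO2) of each of the 31 members tested, with its 95% interval from edgeR; dotted lines mark 2-fold, and colours mark antenna genes by their description. Brown points, the 14 fucoxanthin-type antenna genes, all lie left of 0, green points, the 9 chlorophyll a-b type genes, lie on both sides, and only 2 intervals reach past a dotted line.

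The 23 antenna genes were split by their Swiss-Prot descriptions into 14 of the fucoxanthin-chlorophyll type and 9 of the chlorophyll a-b type. Among the 14, which hold the 6 highest levels of the family, the median log2 fold change was -0.23 and all 14 values were negative, and none passed. Among the 9, the median was -0.03, with 4 values above and 5 below 0, and none passed. Without high CO2 replicate 3 the median of the 14 was -0.08, with 13 values below 0. Without both libraries that stood apart it was -0.13, with 12 below 0, and without low CO2 replicate 2 it was -0.24, with 13 below 0. The median of the 9 changed sign under some alternatives: it was 0.04, with 5 values above 0, in limma on log2(FPKM + 1) and also without both libraries that stood apart. It was -0.01 without high CO2 replicate 3 and -0.003 without low CO2 replicate 1. In the limma fit the median of the 14 was -0.15 and all 14 values were negative. Whether the types differ in their response was not tested, since the members were chosen with earlier results of these data known.

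Together the 23 antenna genes took 5.94%, 6.35% and 6.26% of the counts of low CO2 replicates 1, 2 and 3, and 6.64%, 6.52% and 7.95% of the counts of high CO2 replicates 1, 2 and 3. The groups did not overlap, and replicate 3 of high CO2 lay far above all other libraries. Mean shares were 6.18% ± 0.21 in low CO2 and 7.04% ± 0.79 in high CO2 (SD, n = 3 each), a difference of -0.86 percentage points that was -0.40 without high CO2 replicate 3. Measured per length, as a share of TPM (transcript abundance scaled to length and to a fixed sum per library), the antenna took 6.91% ± 0.59 in low CO2 and 7.13% ± 0.51 in high CO2, and there the groups overlapped. In TPM, high CO2 replicates 1 and 2 alone averaged 6.84%, which is below the low CO2 mean. Low CO2 replicates 2 and 3 alone averaged 7.25%. The fucoxanthin-type genes took 4.96% ± 0.10 of counts in low CO2 and 5.81% ± 0.66 in high CO2, where replicates 1 and 2 alone averaged 5.43%. In TPM they took 4.54% ± 0.29 in low CO2 and 4.97% ± 0.41 in high CO2, and the groups overlapped. There, high CO2 replicates 1 and 2 alone averaged 4.74%, and low CO2 replicates 2 and 3 alone averaged 4.71%. The chlorophyll a-b type genes took 1.22% ± 0.12 of counts in low CO2 and 1.22% ± 0.13 in high CO2. In TPM they took 2.36% ± 0.30 in low CO2 and 2.16% ± 0.099 in high CO2, and the groups overlapped on both scales.

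**Figure D3:**
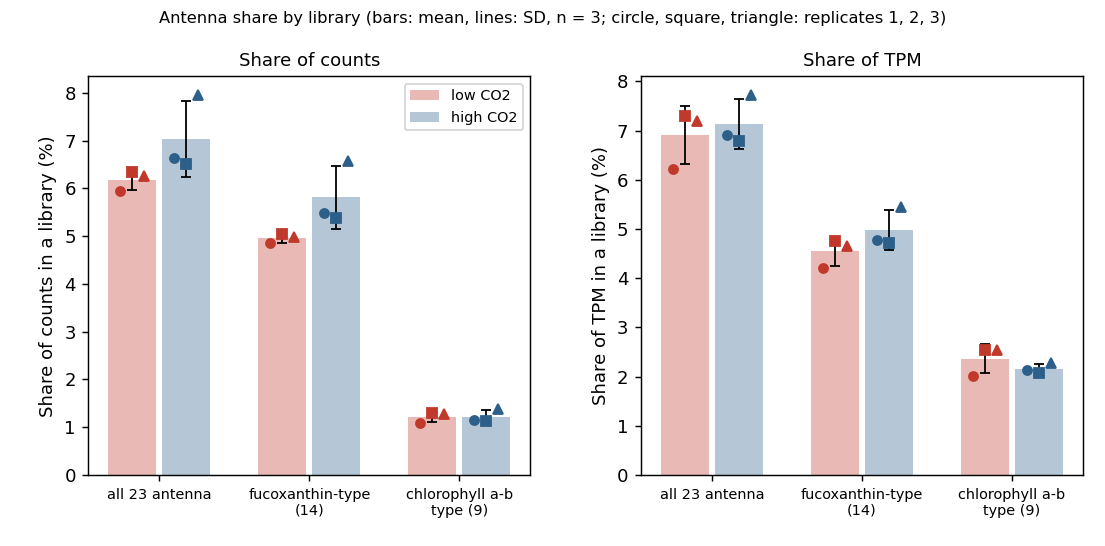
Share of each library's counts (left) and TPM (right) on the 23 antenna genes and on its 2 types, in percent; bars are means, lines are SD over 3 replicates, and circles, squares and triangles are replicates 1, 2 and 3. High CO2 replicate 3 has the highest share of counts, 7.95%, and low CO2 replicate 1 the lowest, 5.94%.

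The antenna protein with the smallest adjusted p of all members was NO02G05990, described as the chlorophyll a-b binding protein L1818 and as a stress-related chlorophyll-binding protein. Proteins of this LI818 or LHCSR type take part in dissipating excess light in green algae. Such words stood in the descriptions of 12 of the 23 antenna genes, most of them fucoxanthin-type genes. Of these 12, 11 had a negative fitted change, and NO02G05990 had the 1 positive change. The median of the 12 was -0.23, and none passed. Without high CO2 replicate 3 it was -0.08, with 10 negative changes. NO02G05990 was at 2627, 3046 and 3094 FPKM in low CO2 replicates 1, 2 and 3, against 2147, 2103 and 1962 FPKM in high CO2 replicates 1, 2 and 3. All 3 low CO2 libraries lay above all 3 high CO2 libraries, and low CO2 replicate 1 was the lowest of its group in FPKM. On the TMM-scaled log2 CPM scale, low CO2 replicate 1 differed from replicates 2 and 3 by -0.04, and high CO2 replicate 3 from replicates 1 and 2 by -0.02. The log2 fold change was 0.44 (SE 0.09, 95% interval 0.22 to 0.66, adjusted p = 0.0663), so it did not pass in edgeR. Over the alternatives its adjusted p ran between 5.59e-07 and 0.411. It passed in DESeq2 (adjusted p = 0.000774), in edgeR without low CO2 replicate 1 (adjusted p = 0.0141), where 17.2% of all genes passed, 7.02% as higher and 10.2% as lower, and in edgeR without both libraries that stood apart (adjusted p = 5.59e-07), where 36.6% of all genes passed.

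The highest fitted change among the members was that of NO07G03310, described as chlorophyll a-b binding protein 8, a name used for antenna proteins of photosystem I in land plants. It was at 458, 777 and 779 FPKM in low CO2 replicates 1, 2 and 3, against 459, 416 and 418 FPKM in high CO2 replicates 1, 2 and 3. Low CO2 replicates 2 and 3 stood above all high CO2 libraries, and low CO2 replicate 1 lay at the level of high CO2. The log2 fold change was 0.56 (SE 0.17, 95% interval 0.17 to 0.96, adjusted p = 0.147). Without low CO2 replicate 1 it was 0.73 (adjusted p = 0.0034), and without both libraries that stood apart it was 0.74 (adjusted p = 2.75e-08). In those fits 7.02% and 17.2% of all genes passed as higher. Another chlorophyll a-b type gene, NO08G03500, described as a light-harvesting complex I protein, was at 2138, 2535 and 2642 FPKM in low CO2, against 2091, 2015 and 2177 FPKM in high CO2. The groups overlapped, since low CO2 replicate 1 was below high CO2 replicate 3, and its log2 fold change was 0.15 (SE 0.11, adjusted p = 0.463). Under all 15 alternatives these 3 genes kept a positive change, the only antenna genes to do so.

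At the other end stood the neighbouring loci NO09G00440 and NO09G00450, both of the fucoxanthin type and both nearest to an LhcSR protein of a green seaweed. NO09G00440 was at 2290.0, 2404 and 2421 FPKM in low CO2 replicates 1, 2 and 3, against 2939.6, 2734 and 3501 FPKM in high CO2 replicates 1, 2 and 3. NO09G00450 was at 2244, 1989 and 2019 FPKM in low CO2, against 2566, 2519 and 3164 FPKM in high CO2. In both genes every low CO2 library lay below every high CO2 library, and high CO2 replicate 3 was the highest. Log2 fold changes were -0.44 (SE 0.14, adjusted p = 0.162) and -0.46 (SE 0.16, adjusted p = 0.193). In edgeR without low CO2 replicate 1, NO09G00440 was at -0.48 (adjusted p = 0.0609), and NO09G00450 passed at -0.59 (adjusted p = 0.0342). In that fit 10.2% of all genes passed as lower. Counts of both genes were not whole numbers in all 6 libraries, while their sum was whole in all 6, so reads were divided between the copies and each copy's own level is uncertain. Their summed level was 9035 ± 827 CPM in low CO2 and 12339.8 ± 2022 CPM in high CO2 (SD, n = 3 each). High CO2 replicate 3 was at 14662 CPM in that sum, against 11385 and 10972 CPM in high CO2 replicates 1 and 2, and low CO2 replicates ranged from 8504 to 9987 CPM.

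The most abundant gene, NO25G00860, is also of the fucoxanthin type. It was at 4891, 4649.7 and 4666 FPKM in low CO2 replicates 1, 2 and 3, against 5301, 5231 and 6054 FPKM in high CO2 replicates 1, 2 and 3. The groups did not overlap, and high CO2 replicate 3 was the highest library. Its log2 fold change was -0.29 (SE 0.14, 95% interval -0.61 to 0.03, adjusted p = 0.299), or -0.19 without that library, and its counts were not whole in any library, so part of its reads was shared with a gene that was not identified. NO05G01620, the second antenna gene in level, was at 3705, 4025 and 3795 FPKM in low CO2, against 3822, 4079.5 and 5182 FPKM in high CO2, and only high CO2 replicate 3 stood out. Its log2 fold change was -0.25 (SE 0.16, adjusted p = 0.42), and -0.07 without that library. NO03G03690, the third in level, was at 2526, 3204 and 2993 FPKM in low CO2, against 3053, 2905 and 3321 FPKM in high CO2. The groups overlapped widely there, with a fitted log2 change of -0.16 (SE 0.12, adjusted p = 0.483), or -0.08 without high CO2 replicate 3.

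A further 3 antenna genes, named after their values were seen because all low CO2 libraries lay below all high CO2 libraries in both FPKM and CPM, did not pass. NO04G02960, nearest to the minor photosystem II antenna CP26 of a green alga, averaged 2282 ± 211 FPKM in low CO2 and 2887 ± 316 FPKM in high CO2, with a fitted log2 change of -0.41 (SE 0.13, adjusted p = 0.155). NO26G01720 averaged 1637 ± 119 FPKM in low CO2 and 2061 ± 249.7 FPKM in high CO2 (-0.40, SE 0.14, adjusted p = 0.177). NO24G02290 averaged 1731 ± 177 FPKM in low CO2 and 2206 ± 431 FPKM in high CO2 (-0.40, SE 0.16, adjusted p = 0.25). All SD are over 3 replicates. In each of them high CO2 replicate 3 was the highest library, by 0.35, 0.38 and 0.53 log2 above high CO2 replicates 1 and 2. Without it the changes were -0.29 at NO04G02960, -0.26 at NO26G01720 and -0.20 at NO24G02290.

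The other 12 antenna genes had log2 fold changes from -0.31 (NO13G02860) to 0.00 (NO11G02920) and adjusted p-values from 0.363 to 0.986. Without high CO2 replicate 3 the changes ran from -0.11 to 0.06. Their highest level was that of NO12G02630, at 2465 ± 78.4 FPKM in low CO2 and 2655 ± 447 FPKM in high CO2. Beside it in locus number is NO12G02640, described as a photosystem I chlorophyll-binding protein, at 1919 ± 210.1 FPKM in low CO2 and 1862 ± 139 FPKM in high CO2. These neighbours had whole counts throughout, and neither differed between the groups by more than the spread of its replicates. The lowest gene, NO07G03080, of the LI818 type, was at 117, 71.1 and 85 FPKM in low CO2, against 90.4, 92.4 and 105 FPKM in high CO2. It was the antenna gene in which low CO2 replicate 1 lay furthest above replicates 2 and 3, by 0.78 log2, and its log2 fold change was -0.12 (SE 0.24, adjusted p = 0.804), or -0.43 without low CO2 replicate 1. Of these 12, the next in level were NO11G02920, at 812 ± 70.6 FPKM in low CO2 and 780.4 ± 106 FPKM in high CO2, and NO29G01730, at 839 ± 84.6 FPKM in low CO2 and 877 ± 109 FPKM in high CO2. Both had intervals on either side of 0.

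Both nuclear photosystem II subunits belong to the lumenal cap that stabilises the manganese cluster where water is split. PsbO (NO24G01680), the manganese-stabilizing protein, was at 2063, 2546 and 2444 FPKM in low CO2 replicates 1, 2 and 3, against 2381, 2347 and 2785 FPKM in high CO2 replicates 1, 2 and 3. The groups overlapped, and the log2 fold change was -0.17 (SE 0.13, 95% interval -0.46 to 0.13, adjusted p = 0.504). It was -0.05 without high CO2 replicate 3 and -0.03 without both libraries that stood apart. PsbU (NO14G01170), an extrinsic subunit that is found in red-lineage algae and cyanobacteria, was at 1023, 1099 and 1047 FPKM in low CO2, against 1246, 1252 and 1724 FPKM in high CO2. Every low CO2 library was below every high CO2 library, and the log2 fold change of -0.49 was the lowest of the 31 members (SE 0.17, 95% interval -0.88 to -0.09, adjusted p = 0.191). In high CO2 replicate 3 it lay 0.55 log2 above replicates 1 and 2. Without that library the change was -0.28 (adjusted p = 0.255), and without both libraries that stood apart it was -0.32 (adjusted p = 8.02e-06). In the latter fit 19.4% of all genes passed as lower.

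Factors that build or repair photosystem II came next. Psb27 (NO10G02270), a lumenal lipoprotein that in cyanobacteria and plants binds photosystem II during assembly and repair, was at 916, 685 and 712 FPKM in low CO2 replicates 1, 2 and 3, against 889, 877 and 995 FPKM in high CO2 replicates 1, 2 and 3. Low CO2 replicates 2 and 3 were below all other libraries, and low CO2 replicate 1 lay among those of high CO2. The log2 fold change was -0.31 (SE 0.18, adjusted p = 0.404). It was -0.53 without low CO2 replicate 1 (adjusted p = 0.0212) and -0.44 without both libraries that stood apart (adjusted p = 2.65e-06). In those fits 10.2% and 19.4% of all genes passed as lower. HCF136 (NO03G02140), which in Arabidopsis is needed to assemble the photosystem II reaction centre, was at 272, 313 and 286 FPKM in low CO2, against 263, 260.4 and 288 FPKM in high CO2. The groups overlapped, with a log2 fold change of 0.03 (SE 0.11, 95% interval -0.23 to 0.29, adjusted p = 0.897), or 0.11 without high CO2 replicate 3.

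Another pair is described as carboxyl-terminal processing proteases, the enzymes that trim the precursor of the photosystem II protein D1. NO25G01630 was at 20.9, 44 and 49.5 FPKM in low CO2, against 43.2, 35.8 and 13.4 FPKM in high CO2. Both libraries that stood apart were the low ones of their groups, by a log2 CPM difference of -0.95 in low CO2 replicate 1 and -1.42 in high CO2 replicate 3. The log2 fold change was 0.24 (SE 0.43, 95% interval -0.77 to 1.25, adjusted p = 0.791). It was 0.49 without low CO2 replicate 1 and -0.10 without high CO2 replicate 3. NO07G02610 was at 9.12, 12.8 and 14.3 FPKM in low CO2, against 8.34, 8.34 and 5.99 FPKM in high CO2. Here every low CO2 library was above every high CO2 library, but the counts were 48 to 141 per library and the log2 fold change of 0.46 did not pass (SE 0.25, 95% interval -0.11 to 1.03, adjusted p = 0.351), nor did it without high CO2 replicate 3, at 0.29.

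Neither gene of electron transfer to and from photosystem I passed. Ferredoxin-NADP reductase (NO16G02580), which passes electrons from ferredoxin to NADP+, was at 616, 864 and 859 FPKM in low CO2 replicates 1, 2 and 3, against 751, 729.8 and 729 FPKM in high CO2 replicates 1, 2 and 3. Low CO2 replicate 1 was the lowest library and replicates 2 and 3 the highest, so the groups overlapped, with a log2 fold change of 0.00 (SE 0.12, 95% interval -0.27 to 0.28, adjusted p = 0.993). It was 0.09 without low CO2 replicate 1. Cytochrome c6 (NO05G04730), the soluble haem protein that carries electrons to photosystem I where plastocyanin is absent, had a nuclear copy at 24.5, 36.9 and 45 FPKM in low CO2, against 36.1, 40 and 29.3 FPKM in high CO2. It had 36 to 88 counts per library, the groups overlapped, and the log2 fold change was -0.05 (SE 0.26, 95% interval -0.66 to 0.57, adjusted p = 0.937). It was 0.11 without low CO2 replicate 1. The plastid genome of the reference also holds a cytochrome c6 gene (petJ), whose level was not analysed here. No member was described as plastocyanin or as a core subunit of photosystem I. The gene model NO05G02060, described like the Rieske protein of the cytochrome b6-f complex and lying among the 3 copies left out, had 0 counts in all 6 libraries and could not be tested.

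Much of the variation among these genes lay between libraries of one condition. In high CO2 replicate 3, 26 of the 31 members and 21 of the 23 antenna genes were above the mean of high CO2 replicates 1 and 2 on the log2 CPM scale. The median difference was 0.34 log2 for the antenna, against -0.01 over all 9244 genes. It was 0.63 for NO21G02150, 0.56 for NO13G02860 and 0.53 for NO24G02290. The antenna genes below the mean of replicates 1 and 2 were NO02G05990, at -0.02, and NO11G02920, at -0.26. With a smooth trend on gene length removed from each library, the median for the antenna was 0.43, against 0.10 over all genes. High CO2 replicates 1 and 2 differed by a median absolute 0.03 log2 for the antenna genes, against 0.14 over all genes. In low CO2 replicate 1 the antenna median was -0.03 from replicates 2 and 3, and 9 of the 14 fucoxanthin-type genes but 1 of the 9 chlorophyll a-b type genes were above them. What sets these libraries apart was not tested.

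**Figure D4:**
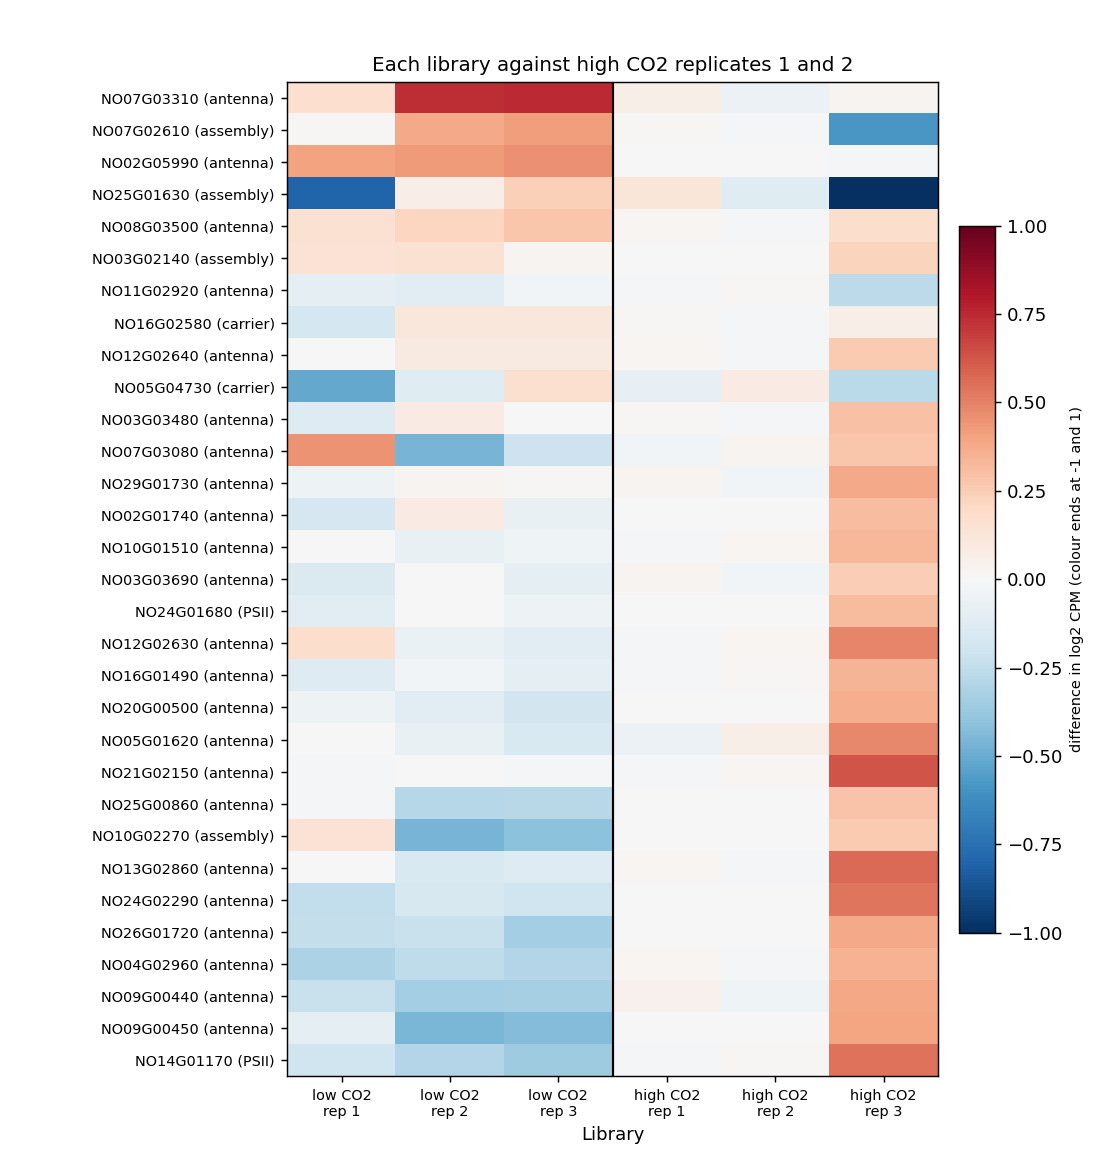
Difference in log2 CPM of each of the 31 members in each library from the mean of high CO2 replicates 1 and 2, with red above and blue below; rows run in the order of the fitted change, and colours end at -1 and 1. The high CO2 replicate 3 column is red for 26 of 31 members, and the columns of high CO2 replicates 1 and 2 are pale because they set the zero.

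Without both libraries that stood apart, 3 members passed as higher and 11 as lower in low CO2, where 17.2% and 19.4% of all genes passed in those directions. The 2 libraries then left in each group are those most like each other, and standard errors were smaller, for instance 0.05 against 0.09 at NO02G05990. The 3 that were higher were the antenna genes NO07G03310 (0.74), NO02G05990 (0.44) and NO08G03500 (0.24), all of the chlorophyll a-b type. Of the 11 that were lower, 7 were fucoxanthin-type antenna genes, with NO09G00450 (-0.45), NO09G00440 (-0.34), NO07G03080 (-0.33) and NO25G00860 (-0.28) among them, 2 were the chlorophyll a-b type genes NO24G02290 (-0.18) and NO20G00500 (-0.14), and the others were PsbU and Psb27. All 14 changes were under 2-fold. The antenna median was then -0.07, beside -0.18 with all libraries, and without high CO2 replicate 3 alone it was also -0.07.

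**Figure D5:**
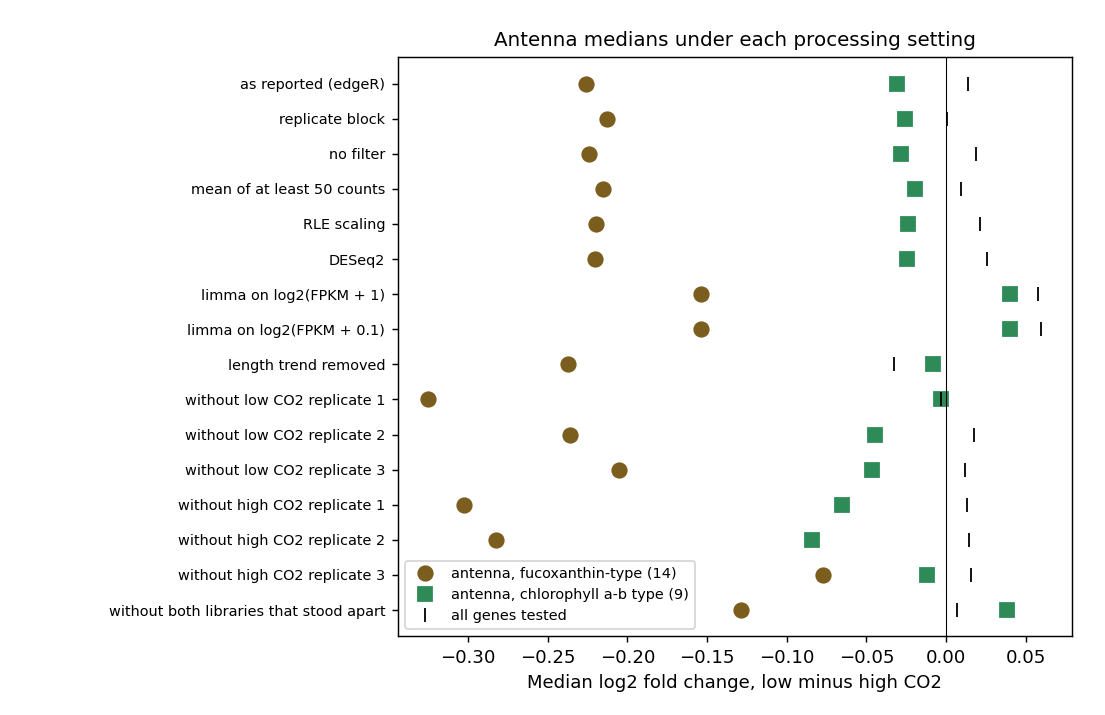
Median log2 fold change (low minus high CO2) of the 14 fucoxanthin-type antenna genes (brown circles), the 9 chlorophyll a-b type antenna genes (green squares) and all genes tested (black bars) under each processing setting. Brown circles stay below 0 throughout, from -0.32 without low CO2 replicate 1 to -0.08 without high CO2 replicate 3, and green squares lie between -0.08 and 0.04.

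Other genes of the apparatus, and genes with related wording, were looked up by word lists on the same descriptions. Of 15 ferredoxins and ferredoxin-linked enzymes, 1 passed: the ferredoxin NO09G00110, an iron-sulfur electron carrier, fell to 129, 163 and 149 FPKM in low CO2 replicates 1, 2 and 3, against 1031, 1063 and 1246 FPKM in high CO2 replicates 1, 2 and 3. The groups were far apart, with a fitted log2 change of -3.00 (SE 0.14, adjusted p = 0.000308 in edgeR). Ferredoxin-NADP reductase had one of 0.00, and which of the ferredoxins serves it was not tested. The other 14 of the list did not pass. Over all genes 2.12% passed. DESeq2 called 1 of the 15 as higher, the ferredoxin-dependent glutamate synthase NO10G02290, and 1 as lower, NO09G00110. It called 3.75% of all genes as higher and 2.69% as lower. By their wording the 15 include a mitochondrial ferredoxin, nitrite and sulfite reductases and a glutamate synthase, so they are not photosynthetic carriers alone. The list held 7 positive and 8 negative changes, and its median was -0.24, beside 0.01 over all genes. Without high CO2 replicate 3 that median was -0.13. Of the 15, 4 passed as higher and 5 as lower without low CO2 replicate 1, with NO09G00110 among the 5. In that fit 7.02% of all genes passed as higher and 10.2% as lower. Without both libraries that stood apart, 5 of the 15 passed as higher and 7 as lower, where 17.2% and 19.4% of all genes did. None of 12 genes on the list of photoprotection and alternative electron routes, 2 of them named as other monooxygenases in Swiss-Prot, passed, with a median of 0.02 and a range from -0.36 to 0.30. Zeaxanthin epoxidase (NO07G03040), which turns zeaxanthin back into violaxanthin, was the highest of them, at 364 ± 27.3 FPKM in low CO2 and 310.1 ± 32.7 FPKM in high CO2 (SD, n = 3 each). Without high CO2 replicate 3 the median of these 12 was -0.001. Without low CO2 replicate 1, 1 of the 12 passed, as lower, where 10.2% of all genes did. It was NO02G00290, described as a mitochondrial alternative oxidase. Without both libraries that stood apart, it and the violaxanthin de-epoxidase NO03G00410 passed as lower, where 19.4% of all genes did.

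The chloroplast ATP synthase gamma chain (NO23G00520), the rotor of the enzyme that makes ATP from the thylakoid proton gradient, was at 213, 303 and 329 FPKM in low CO2, against 236, 216 and 151 FPKM in high CO2. Low CO2 replicate 1 lay below high CO2 replicates 1 and 2, so the groups overlapped. The log2 fold change was 0.41 (SE 0.18, adjusted p = 0.274), or 0.27 without high CO2 replicate 3. In edgeR without both libraries that stood apart the gene passed at 0.38 (adjusted p = 9.34e-05). In that fit 17.2% of all genes passed as higher. Of 28 genes on the list of thylakoid insertion, lumen proteins and repair proteases, 27 could be tested and none passed, with a median of 0.02. That median was -0.10 without high CO2 replicate 3, -0.04 without low CO2 replicate 1 and -0.11 with the length trend removed. Without low CO2 replicate 1, 1 gene passed as higher and 1 as lower, where 7.02% and 10.2% of all genes did. Without both libraries that stood apart, 4 passed as higher and 3 as lower, where 17.2% and 19.4% of all genes did. DESeq2 called 1 as higher, where it called 3.75% of all genes. By their wording 2 of the 28 are receptors of the endoplasmic reticulum lumen and some are mitochondrial proteases. The most abundant of the list was the FtsH protease NO02G03120, of a family that removes damaged photosystem II proteins. It was at 543 ± 84.2 FPKM in low CO2 and 466 ± 17.9 FPKM in high CO2 (log2 fold change 0.14, SE 0.12, adjusted p = 0.536). In edgeR without both libraries that stood apart it passed at 0.26 (adjusted p = 0.000259), where 17.2% of all genes passed as higher.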

How the data were processed

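Poly(A) RNA-seq tables of 6 libraries were used, 3 per CO2 condition, grouped and numbered by the submitters' titles. Tools named in the submitters' processing notes are edgeR, featureCounts, Picard, STAR, StringTie and Trim Galore. Their versions and roles, the genome build and the annotation are not given in the sources used here; no gene position was used. The expected counts deposited by the authors are estimated reads per gene, unscaled, and 17.5% to 19.8% of a library's values lay over 0.004 from a whole number. The authors' FPKM columns were scaled by effective gene length and library total, and the TPM values deposited by the authors sum to 1000000 per library. A further table deposited by the authors lists 217 genes with log2 fold changes, p-values and FPKM values, and all 1302 FPKM values equal the per-library tables within 0.005. Only its gene list was used.

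Counts were rounded, filtered with filterByExpr (9244 genes kept), scaled by TMM and tested over all genes in R 4.3.3 with edgeR 4.0.16 (robust quasi-likelihood, group as the only term). Genes with a p below 0.05 after Benjamini-Hochberg adjustment were called. Intervals use the test's degrees of freedom. TMM factors ran from 0.938 to 1.07, and at 2 members the difference of FPKM means and the fitted change differ in sign. The test was checked on simulated counts. Alternatives used DESeq2 1.42.0, limma 3.58.1, other filters, scalings and left-out libraries. Python 3.11.15 drew the figures.

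Roles and lists were word patterns; members, patterns, alternatives and the left-out libraries were chosen with earlier results of these data known, and 1 pattern was corrected on reading the descriptions, so that PsbO counts as a subunit. Named genes were called members, members of roles with 6 or fewer, per role the 3 highest levels and the 2 highest and 2 lowest changes, and per list the called genes and the highest level. Any other gene was named after its values were seen.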

Additional observations from a re-analysis of the deposited data

How the results depend on the processing

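The count of members called stayed at 0 with limma (either pseudocount), RLE scaling, removal of the length trend, a filter at a mean of 50 counts, no filter, and the replicate block. It was 1 in DESeq2, 14 without both libraries that stood apart, and 0 to 4 when 1 library was left out, with 4 without low CO2 replicate 1. For the related lists it was 1, against 3 in DESeq2, 22 without both libraries that stood apart, and 1 to 12 when 1 library was left out, with 12 without low CO2 replicate 1. Leaving out low CO2 replicate 1 or both libraries also moved the count over all genes, to 1610 and 3402, against 196, and it was 21 with the replicate block, 581 in DESeq2 and 18 to 68 without any other single library. The cause was not tested. Correlations of deviations from the group means were -0.36, 0.08 and -0.43 for same-numbered libraries 1, 2 and 3. Between low CO2 replicate 1 and high CO2 replicate 3, the libraries that stood apart, the correlation was 0.37. These libraries weigh on all such values, which therefore cannot show whether same-numbered libraries were pairs. The numbers were not taken as pairs, except in the fit with the replicate block. The difference in antenna share was -0.22 percentage points in TPM, against -0.86 in counts. In counts it ran from -1.11 to -0.40 when 1 library was left out. In TPM its sign changed without high CO2 replicate 3, where high CO2 averaged 6.84% and low CO2 6.91%. The median of the members was -0.16 and ran from -0.22 to -0.07 when 1 library was left out, and that of the antenna proteins was -0.18 and ran from -0.26 to -0.07. Both were at -0.07 without high CO2 replicate 3, and both stayed below 0 under all alternatives run. Among values of named genes under alternatives, 256 kept direction and side of the threshold, 14 passed where they had not, and 15 changed sign. The sign changed at HCF136 (NO03G02140; -0.025 with the length trend removed, -0.0053 to 0.111 when 1 library was left out), cytochrome c6 (NO05G04730; 0.082 with the length trend removed, 0.0243 without both libraries that stood apart, -0.225 to 0.107 when 1 library was left out), ferredoxin-NADP reductase (NO16G02580; -0.0035 with the replicate block, -0.12 with the length trend removed, -0.0458 to 0.0914 when 1 library was left out), the protease NO25G01630 (-0.0989 to 0.542 when 1 library was left out) and the FtsH protease NO02G03120 (-0.00464 with the length trend removed).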
